A study of Mus musculus with 8 samples.

Results

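The message levels of 9 adhesion receptor genes, out of 45777 genes in the count table, were followed in activated mouse CD8+ T cells. They were the integrin alpha subunit genes Itgal, Itga4, Itgae, Itgav and Itga6, the integrin beta subunit genes Itgb1, Itgb2 and Itgb7, and Cd44. Members were chosen by name, by the symbols in the authors' log2 table, and joined to the counts by gene ID. All 9 were found, and all 9 passed the filter on low counts.

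An integrin is a pair of 1 alpha and 1 beta chain that holds a cell to matrix or to other cells. T cells keep their integrins in a bent, inactive form until a signal from the T cell receptor or a chemokine receptor, passed on through RAP1, talin and kindlin, opens them. Itgal with Itgb2 makes LFA-1, which binds ICAM-1 and holds the T cell to the cell it recognises. Itga4 pairs either with Itgb1 (VLA-4, a receptor for VCAM-1 and fibronectin) or with Itgb7 (LPAM-1, a receptor for MAdCAM-1 that directs T cells to the gut). Itgae (CD103) pairs with Itgb7 and binds E-cadherin on epithelium. Cd44 is no integrin: it binds hyaluronan and is a standard surface marker of activated and memory T cells.

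The cells were primary CD8+ T cells of C57BL/6 mice, taken from lymph node and spleen, stimulated with antibodies to CD3 and CD28 in every group, and kept for 48 h with a compound or vehicle. There were 2 RNA-seq libraries in each of 4 groups, which were EnPGC-1, SGC-CBP30 (a bromodomain inhibitor acting on CBP and p300), Ctrl PIP and the vehicle DMSO. The labels give no doses, so compounds are compared without matched doses, and they do not say whether libraries of a group came from separate mice or cultures. The p-values therefore reflect how far these libraries differ, a spread that may be technical. In these bulk samples, fewer cells of a type and less RNA per cell cannot be told apart.

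Total counts ran from 38890043 to 55491261 per library. The markers of CD8 T cells fit the label: Cd3d, Cd3e, Cd3g, Cd8a, Cd8b1, Cd2 and Lck summed to 3394 to 4941 CPM in all 8 libraries, where CPM is a gene's count scaled to a common library size. Libraries of DMSO and of EnPGC-1 stood apart from each other within their own group. The median gene differed between the libraries of a group by 0.56 on the log2 scale in EnPGC-1, 0.20 in SGC-CBP30, 0.20 in Ctrl PIP and 0.73 in DMSO. Marker sums of other cell types ran from 19.3 to 58.8 CPM for B cells (8 genes) and from 257 to 478 CPM for CD4 T cells (5 genes). Most of the CD4 T cell sum was Ctla4, at 237 to 440 CPM, and Cd4 itself had 4.54 to 14.1 CPM. For myeloid and dendritic cells the sums ran from 9.07 to 25.6 CPM (8 genes), and for stroma and endothelium from 120 to 224 CPM (6 genes).

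On GRCm38.p6, the assembly called mm10, 4 of the 9 genes lie on chromosome 2, Itga6 (gene ID 16403) at chr2:71786886-71858427, Itga4 (gene ID 16401) at chr2:79255426-79333114, Itgav (gene ID 16410) at chr2:83722303-83806917 and Cd44 (gene ID 12505) at chr2:102811141-102901669. The beta chain genes lie apart, Itgb1 (gene ID 16412) at chr8:128685654-128733579, Itgb2 (gene ID 16414) at chr10:77530329-77565708 and Itgb7 (gene ID 16421) at chr15:102215994-102233405. The other alpha chain genes are Itgal (gene ID 16408) at chr7:127296139-127335137 and Itgae (gene ID 16407) at chr11:73090505-73147449. Counts were taken over whole genes, so exons and splice forms are not told apart.

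Compared per kilobase of the longest annotated transcript, Itgb7 had the highest level of the 9, with a mean over the 8 libraries of 195 CPM per kb. Itgal had 126, Itgb2 105 and Itgb1 56.5 CPM per kb. Itga4 had 27.1, Itgae 24.5, Itga6 20.2, Cd44 18.2 and Itgav 4.03 CPM per kb. Neighbours in this order overlapped over the 8 libraries except at a pair of steps. Itgb2, at 95.1 to 121 CPM per kb, lay above Itgb1 at 39.8 to 75.9 CPM per kb, and Cd44, at 12.5 to 21.7 CPM per kb, lay above Itgav at 2.69 to 5.84 CPM per kb. The beta chains Itgb7 and Itgb2 and the LFA-1 alpha chain were thus the most abundant messages, and the vitronectin receptor chain Itgav the least. The lowest raw count of any member was 1008 reads, for Itgav in DMSO replicate 2, so counting error is small against the spread between libraries.

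Itgb1, the beta chain shared by the VLA receptors for fibronectin, laminin and VCAM-1, had its lowest levels with EnPGC-1 and SGC-CBP30. It had 152 and 161 CPM in EnPGC-1 libraries and 163 and 191 CPM in SGC-CBP30 libraries, against 253 and 257 CPM in Ctrl PIP libraries and 289.5 and 256 CPM in DMSO libraries. All 4 libraries of EnPGC-1 and SGC-CBP30 lay below all 4 of Ctrl PIP and DMSO, and the gap between the closest libraries of these sets, 191 against 253 CPM, was wider than the gap within any of the 4 groups. Itgb1 was the only 1 of the 9 members placed so, an arrangement found for 3.73% of the 16750 genes tested, with 2.98% arranged the other way. Group means were 157 ± 6.61 CPM in EnPGC-1, 177 ± 19.9 CPM in SGC-CBP30, 255 ± 2.91 CPM in Ctrl PIP and 273 ± 23.6 CPM in DMSO (SD, n = 2 each).

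Itgb1 had a log2 fold change of -0.80 for EnPGC-1 over DMSO, a fold of 0.574, with a standard error of 0.19 and a 95% interval of -1.25 to -0.35. The unadjusted p in edgeR's quasi-likelihood test was 0.00403, the 21st smallest of 16750 genes, and the Benjamini-Hochberg adjusted p over all genes was 0.998. DESeq2 gave an adjusted p of 0.0894 for the same difference. The adjusted p ran from 0.0641 to 1 over the alternative settings, so the difference did not pass the threshold of 0.05 in any of them. Against Ctrl PIP, the log2 fold change of EnPGC-1 was -0.71 (interval -1.15 to -0.26, edgeR adjusted p = 0.812). SGC-CBP30 had log2 fold changes of -0.63 over DMSO (interval -1.07 to -0.18, edgeR adjusted p = 0.943) and -0.53 over Ctrl PIP (interval -0.97 to -0.08, edgeR adjusted p = 0.871). These comparisons share libraries and are not independent of each other.

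Between the other pairs, Itgb1 differed less. EnPGC-1 over SGC-CBP30 gave -0.18 (interval -0.62 to 0.27), although both EnPGC-1 libraries were below both SGC-CBP30 libraries. Ctrl PIP over DMSO gave -0.10 (interval -0.54 to 0.35), and their libraries overlapped. In the 5 comparisons that involve EnPGC-1 or SGC-CBP30, the sign of the Itgb1 value was the same in every alternative setting. Its unadjusted p for SGC-CBP30 over DMSO was above 0.05 when SGC-CBP30 replicate 1 was left out, and for SGC-CBP30 over Ctrl PIP when any 1 of their 4 libraries was left out. Marker lists of other cell types moved with this result. The 4 NK cell markers (Ncr1, Klrb1c, Klre1 and Klra8) summed to 1.53 and 2.47 CPM in EnPGC-1 libraries and 1.07 and 2.69 CPM in SGC-CBP30 libraries, against 6.02 and 8.34 CPM in Ctrl PIP libraries and 4.87 and 8.001 CPM in DMSO libraries. Most of each sum was Klre1, Ncr1 and Klra8 were both at 0 in the libraries of SGC-CBP30, and no library had more than 0.534 CPM of Ncr1. The 6 stromal and endothelial markers lay the other way, with 214 and 219 CPM in EnPGC-1 libraries and 224 and 224 CPM in SGC-CBP30 libraries, against 155 and 157 CPM in Ctrl PIP libraries and 197 and 120.0 CPM in DMSO libraries. Nearly all of that sum was Pecam1, which T cells also express, and the endothelial gene Cdh5 had at most 0.111 CPM. The part of these markers in the Itgb1 result was not tested.

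Itgb7, the beta chain of the gut-homing and E-cadherin receptors, lay the other way. It had 560.3 and 735 CPM in EnPGC-1 libraries and 604 and 512 CPM in SGC-CBP30 libraries, against 455 and 414 CPM in Ctrl PIP libraries and 513 and 398 CPM in DMSO libraries. EnPGC-1 did not overlap with DMSO or Ctrl PIP. SGC-CBP30 did not overlap with Ctrl PIP but met DMSO by a narrow margin, its replicate 2 at 511.8 CPM and DMSO replicate 1 at 513.0 CPM. The log2 fold change was 0.51 for EnPGC-1 over DMSO (interval -0.09 to 1.10, edgeR unadjusted p = 0.0824, adjusted p = 0.998) and 0.58 for EnPGC-1 over Ctrl PIP (interval -0.02 to 1.17, edgeR adjusted p = 0.812). It was 0.29 for SGC-CBP30 over DMSO (interval -0.30 to 0.89) and 0.36 for SGC-CBP30 over Ctrl PIP (interval -0.23 to 0.95). The value over DMSO rested in part on single libraries: without DMSO replicate 2 it was 0.34, and without EnPGC-1 replicate 2 it was 0.30, on the log2 scale. Between same-numbered libraries of EnPGC-1 and DMSO, the log2 ratio of Itgb7 was 0.13 for the first libraries and 0.89 for the second.

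**Figure D1:**
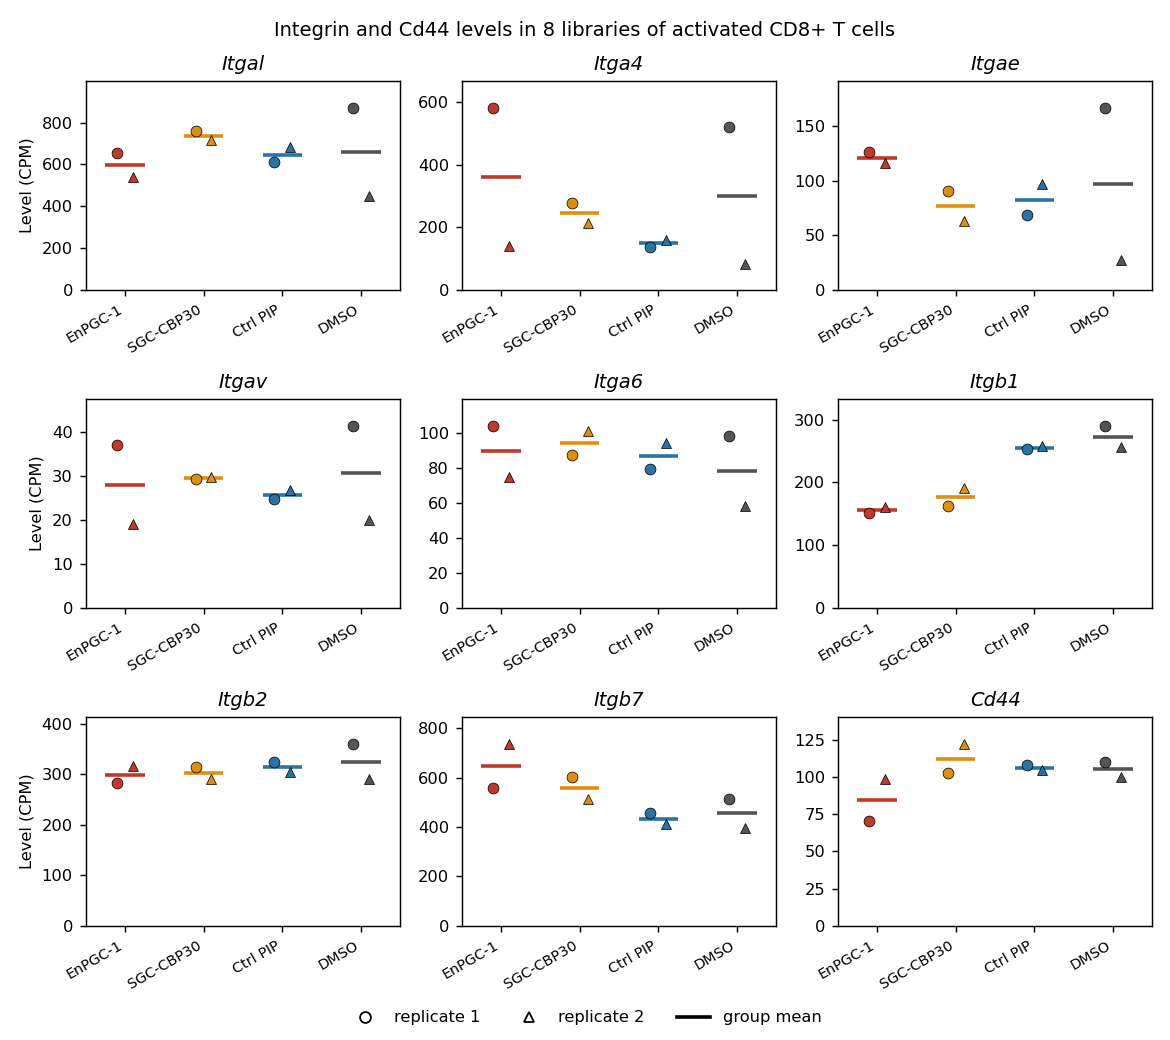
Level of each gene in CPM (vertical axis, starting at 0) in each of the 8 libraries, by group; circles are replicate 1, triangles replicate 2 and bars group means. Itgb1 sits at 152 to 191 CPM in EnPGC-1 and SGC-CBP30 and at 253 to 289.5 CPM in Ctrl PIP and DMSO, while Itga4 and Itgae spread most within DMSO.

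Since Itgb1 and Itgb7 lay on opposite sides, their upstream sequences are shown, as RefSeq's table of promoters gives them on GRCm38.p6. Each is the 250 bases before the annotated start, read 5′ to 3′ on the gene's own strand, in lower case with matches to SP1 (GGGCGG), RUNX (TGTGGT), AP-1 (TGANTCA) and E-box (CACGTG) motifs in capitals, searched on both strands. The Itgb1 window is chr8:128685404-128685653 on the plus strand. The Itgb7 window is chr15:102231936-102232185 on the minus strand, and lies inside the gene's annotated span, which reaches to position 102233405.
Itgb1: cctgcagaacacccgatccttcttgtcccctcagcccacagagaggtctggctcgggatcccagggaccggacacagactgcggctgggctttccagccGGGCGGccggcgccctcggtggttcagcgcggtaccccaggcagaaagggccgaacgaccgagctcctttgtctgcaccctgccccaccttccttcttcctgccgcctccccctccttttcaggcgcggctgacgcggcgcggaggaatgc
Itgb7: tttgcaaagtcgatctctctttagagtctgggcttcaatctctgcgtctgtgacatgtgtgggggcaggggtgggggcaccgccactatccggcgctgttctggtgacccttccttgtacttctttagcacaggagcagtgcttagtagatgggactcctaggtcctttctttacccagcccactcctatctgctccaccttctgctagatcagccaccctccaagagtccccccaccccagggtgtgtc
The Itgb1 window held 1 SP1 match, which 32.7% of 32817 promoter windows of this length hold at least once. The Itgb7 window held none of the 4 motifs. The other motifs occur in 14% (RUNX), 6.75% (AP-1) and 6.02% (E-box) of windows. Promoter windows were found for 5 of the 9 members. Of the other 3, Itga4 had 1 RUNX and 1 SP1 match, and Itgav and Cd44 had none. A match is a description of letters, not a binding site.

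Itgb1 and Itgb7 both pair with Itga4, and their messages were also set against each other within each library. The ratio of Itgb7 to Itgb1 in CPM was 3.69 and 4.56 in EnPGC-1 libraries and 3.71 and 2.68 in SGC-CBP30 libraries, against 1.80 and 1.61 in Ctrl PIP libraries and 1.77 and 1.55 in DMSO libraries. All 4 libraries of EnPGC-1 and SGC-CBP30 exceeded all 4 of Ctrl PIP and DMSO, whose own ratios nearly coincided. On the log2 scale the ratio differed by 1.31 between EnPGC-1 and DMSO, by 1.27 between EnPGC-1 and Ctrl PIP, by 0.93 between SGC-CBP30 and DMSO and by 0.89 between SGC-CBP30 and Ctrl PIP. Ctrl PIP and DMSO differed by 0.04 on that scale, and EnPGC-1 and SGC-CBP30 by 0.38 with overlapping libraries. An exact two-sided permutation test gave p = 0.333 for each of the first 4 differences, which is the smallest p that the 6 rearrangements of 2 against 2 libraries allow. This ratio was chosen with the levels of both genes known, so its separation is a description.

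**Figure D2:**
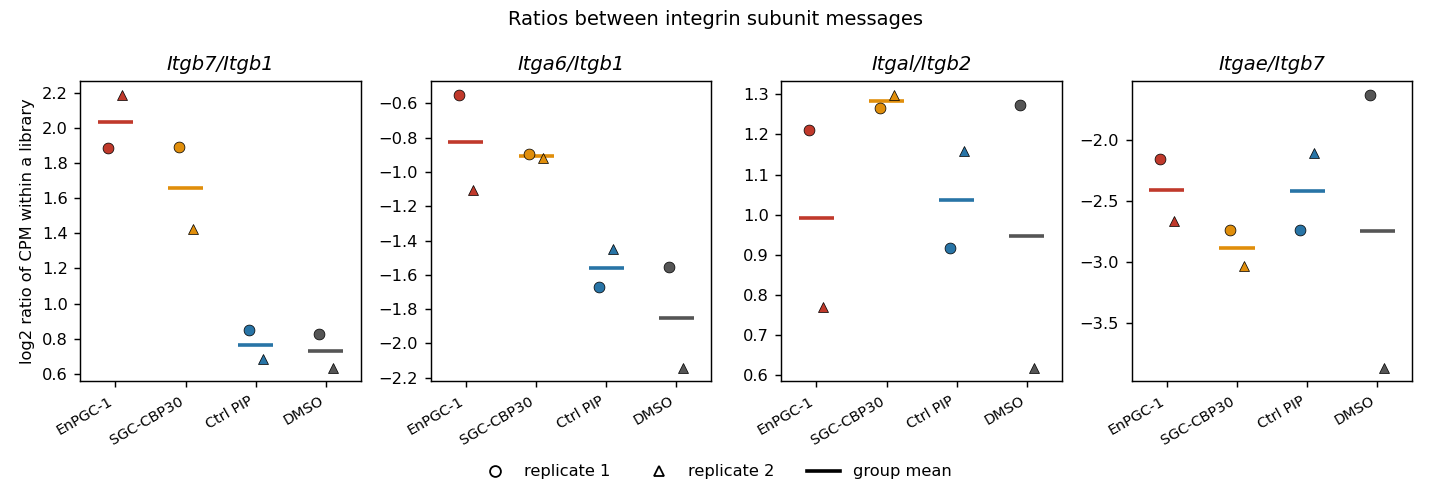
Ratios between subunit messages within each library (vertical axes, log2 of the ratio of CPM, each panel with its own scale), by group; circles are replicate 1, triangles replicate 2 and bars group means. For Itgb7 over Itgb1 and Itga6 over Itgb1 all 4 libraries of EnPGC-1 and SGC-CBP30 lie above those of Ctrl PIP and DMSO. For Itgal over Itgb2 and Itgae over Itgb7 these sets of libraries overlap, although some single pairs of groups do not.

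Of 7 subunit ratios computed, 1 more separated these sets of libraries. Itga6 to Itgb1, the chains of a laminin receptor, was 0.684 and 0.466 in EnPGC-1 libraries and 0.538 and 0.528 in SGC-CBP30 libraries, against 0.314 and 0.366 in Ctrl PIP libraries and 0.340 and 0.227 in DMSO libraries. Both separating ratios have Itgb1 as their denominator. The LFA-1 pair did not separate. Itgal to Itgb2 was 2.32 and 1.70 in EnPGC-1 libraries and 2.41 and 2.46 in SGC-CBP30 libraries, against 1.89 and 2.23 in Ctrl PIP libraries and 2.42 and 1.53 in DMSO libraries.

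Counted over the 9 members, no comparison called any member, and no gene of the 16750 tested passed edgeR's adjusted threshold (0% in each of the 6 comparisons). At an unadjusted edgeR p under 0.05, Itgb1 was the 1 member past the threshold in EnPGC-1 over DMSO (2.61% of all genes), EnPGC-1 over Ctrl PIP (4.48%), SGC-CBP30 over DMSO (4.39%) and SGC-CBP30 over Ctrl PIP (3.99%). No member passed it in EnPGC-1 over SGC-CBP30 (2.03%) or in Ctrl PIP over DMSO (0.597%). DESeq2 called 0 members after adjustment, where it called 0.0829% of genes in EnPGC-1 over DMSO, 0.189% in EnPGC-1 over Ctrl PIP, 0.0466% in EnPGC-1 over SGC-CBP30, 0.356% in SGC-CBP30 over DMSO, 0.128% in SGC-CBP30 over Ctrl PIP and 0.00428% in Ctrl PIP over DMSO. At an unadjusted p under 0.05, DESeq2 passed Itgb1 in the same 4 comparisons and Itgb7 in EnPGC-1 over Ctrl PIP.

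Libraries of both groups did not overlap for 3 of the 9 members in EnPGC-1 over DMSO (19.1% of all genes) and for 4 in EnPGC-1 over Ctrl PIP (42.4%). The count was 4 in EnPGC-1 over SGC-CBP30 (27.8%), 1 in SGC-CBP30 over DMSO (30.6%), 5 in SGC-CBP30 over Ctrl PIP (61.7%) and 0 in Ctrl PIP over DMSO (16.2%). With so few members these counts are a description, and 5 of 9 in SGC-CBP30 over Ctrl PIP is near the share of all genes. The median log2 fold change of the 9 members was -0.12 in EnPGC-1 over DMSO (0.00 over all genes), 0.04 in EnPGC-1 over Ctrl PIP (0.05), -0.08 in EnPGC-1 over SGC-CBP30 (0.02), -0.05 in SGC-CBP30 over DMSO (-0.03), 0.12 in SGC-CBP30 over Ctrl PIP (0.01) and -0.07 in Ctrl PIP over DMSO (-0.05). In EnPGC-1 over DMSO and in SGC-CBP30 over DMSO, 5 members were below 0 and 4 above 0. The split was 4 below and 5 above in EnPGC-1 over Ctrl PIP, 6 and 3 in EnPGC-1 over SGC-CBP30, 3 and 6 in SGC-CBP30 over Ctrl PIP, and 7 and 2 in Ctrl PIP over DMSO.

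**Figure D3:**
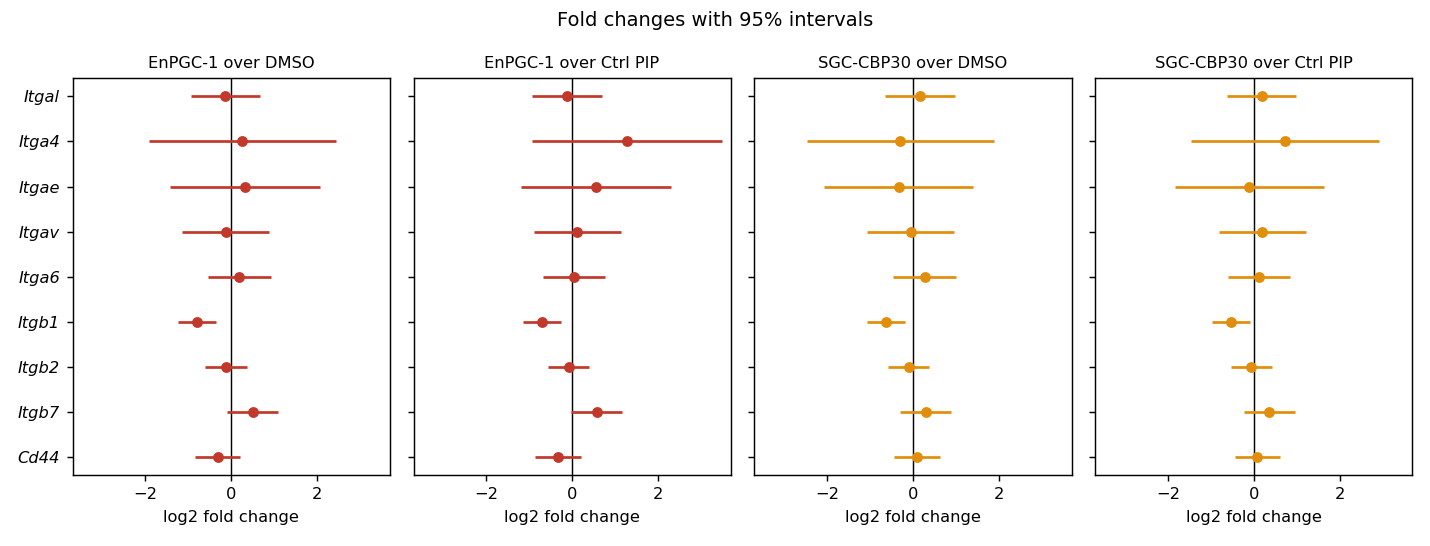
Log2 fold change of each gene (horizontal axis) in 4 comparisons, with 95% intervals from edgeR's fit to all 8 libraries. The interval of Itgb1 lies below 0 in all 4 panels, Itga4 and Itgae have the widest intervals, and no value passed the adjusted threshold.

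The LFA-1 chains hold the T cell to its target. Itgb2, the beta chain, had 283 and 316 CPM in EnPGC-1 libraries and 315 and 291 CPM in SGC-CBP30 libraries, against 324 and 306 CPM in Ctrl PIP libraries and 359 and 291 CPM in DMSO libraries. It varied least of the 9, by 1.27-fold between its lowest and highest library, and no comparison separated its groups. Its log2 fold change for EnPGC-1 over DMSO was -0.12 with an interval of -0.60 to 0.36, which leaves room for a moderate difference either way. Itgal had 655 and 538 CPM in EnPGC-1 libraries and 758 and 715 CPM in SGC-CBP30 libraries, against 612 and 682 CPM in Ctrl PIP libraries and 869 and 447 CPM in DMSO libraries. The DMSO libraries thus held both the highest and the lowest value of Itgal, 1.95-fold apart, and both SGC-CBP30 libraries lay above both of EnPGC-1 and both of Ctrl PIP. The log2 fold change was -0.14 for EnPGC-1 over DMSO (interval -0.95 to 0.66) and 0.16 for SGC-CBP30 over DMSO (interval -0.64 to 0.97). It was -0.30 for EnPGC-1 over SGC-CBP30 (interval -1.11 to 0.50) and 0.19 for SGC-CBP30 over Ctrl PIP (interval -0.62 to 0.99). With trends of transcript length and GC content removed from each library, the Itgal value for SGC-CBP30 over Ctrl PIP was 0.007 (SE 0.19). The adjusted levels then overlapped, at 675 and 678 CPM in SGC-CBP30 libraries and 659 and 687 CPM in Ctrl PIP libraries.

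Itga4, the alpha chain of VLA-4 and LPAM-1, had the widest spread of the 9, 7.20-fold between its lowest and highest library. It had 581 and 141 CPM in EnPGC-1 libraries and 277 and 214 CPM in SGC-CBP30 libraries, against 138 and 160.1 CPM in Ctrl PIP libraries and 522 and 80.7 CPM in DMSO libraries. The first library of EnPGC-1 and of DMSO was high and the second low. The DMSO libraries lay on both sides of those of SGC-CBP30 and Ctrl PIP, and the EnPGC-1 libraries on both sides of those of SGC-CBP30. The log2 fold change was 0.26 for EnPGC-1 over DMSO (interval -1.92 to 2.44). Its direction depended on single libraries: it was 2.18 without DMSO replicate 1, -0.53 without DMSO replicate 2 and -1.09 without EnPGC-1 replicate 1. For EnPGC-1 over Ctrl PIP it was 1.28 (interval -0.94 to 3.49), and -0.08 without EnPGC-1 replicate 1. Among groups with close libraries, SGC-CBP30 over Ctrl PIP gave 0.72 (interval -1.47 to 2.91), with both SGC-CBP30 libraries above both of Ctrl PIP. In a fit of those 4 libraries alone the value was 0.71, with an edgeR adjusted p of 0.0263 (0.0263 to 1 over the alternatives), where 2470 of 15660 genes tested were called. With offsets for transcript length and GC content, the value in the fit to all 8 libraries was 0.22 (SE 0.55, edgeR adjusted p = 0.945).

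Itgae, the CD103 chain of epithelium-resident T cells, had 126 and 116 CPM in EnPGC-1 libraries and 90.9 and 62.6 CPM in SGC-CBP30 libraries, against 68.3 and 96.5 CPM in Ctrl PIP libraries and 166 and 27.2 CPM in DMSO libraries. EnPGC-1 had close libraries that lay above those of SGC-CBP30 and Ctrl PIP, while the DMSO libraries lay on both sides of every other value. Its log2 fold change was 0.56 for EnPGC-1 over Ctrl PIP (interval -1.19 to 2.30), 0.66 for EnPGC-1 over SGC-CBP30 (interval -1.09 to 2.41) and 0.32 for EnPGC-1 over DMSO (interval -1.42 to 2.07). The value over DMSO was 2.17 without DMSO replicate 1 and -0.46 without DMSO replicate 2, so the DMSO libraries set its direction.

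Itgav, the alpha chain of vitronectin receptors, had 36.9 and 19.0 CPM in EnPGC-1 libraries and 29.2 and 29.6 CPM in SGC-CBP30 libraries, against 24.7 and 26.7 CPM in Ctrl PIP libraries and 41.2 and 19.9 CPM in DMSO libraries. Itga6, the laminin receptor chain, had 104 and 75.1 CPM in EnPGC-1 libraries and 87.6 and 101 CPM in SGC-CBP30 libraries, against 79.4 and 94.1 CPM in Ctrl PIP libraries and 98.4 and 58.0 CPM in DMSO libraries. In both genes the first libraries of EnPGC-1 and DMSO were above the second ones. The groups overlapped in every comparison of Itga6, and in all but SGC-CBP30 over Ctrl PIP for Itgav. In that comparison the log2 fold change of Itgav was 0.20, and -0.13 (SE 0.19) with offsets for transcript length and GC content. For EnPGC-1 over DMSO the log2 fold change was -0.13 in Itgav (interval -1.14 to 0.88) and 0.19 in Itga6 (interval -0.54 to 0.92).

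Gaps between the libraries of a group differed by gene and by group. In DMSO the first library exceeded the second by 2.69 for Itga4, 2.61 for Itgae, 1.05 for Itgav, 0.96 for Itgal and 0.76 for Itga6 on the log2 CPM scale, but by 0.37 for Itgb7, 0.30 for Itgb2, 0.18 for Itgb1 and 0.14 for Cd44. In EnPGC-1 the gap was 2.04 for Itga4, 0.96 for Itgav, 0.47 for Itga6 and 0.28 for Itgal, but 0.12 for Itgae, and it was -0.39 for Itgb7 and -0.49 for Cd44. In SGC-CBP30 and Ctrl PIP no gap exceeded 0.54 in size, with the widest in Itgae. Transcript length moved with this gap. Over 9295 genes, Spearman's rho between a gene's deviation from its mean and its transcript length was 0.49 and -0.52 in the EnPGC-1 libraries, 0.54 and 0.48 in the SGC-CBP30 libraries, -0.52 and -0.20 in the Ctrl PIP libraries and 0.56 and -0.61 in the DMSO libraries. Longer messages were thus relatively more counted in the first than in the second library of EnPGC-1 and DMSO. They were also relatively more counted in both SGC-CBP30 libraries and less in both Ctrl PIP libraries, so the trend runs along that comparison. Among the members, Itga4 is the longest at 9767 nt and Itgb7 the shortest at 2683 nt. Over the 9 members, Spearman's rho between the gap and transcript length was 0.63 in EnPGC-1 and 0.47 in DMSO. It was -0.13 in SGC-CBP30 and -0.47 in Ctrl PIP. Itgae at 3845 nt and Itgb1 at 3815 nt are nearly equal in length, and their DMSO gaps were 2.61 and 0.18. The part of length in the gaps of the members was not tested.

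**Figure D4:**
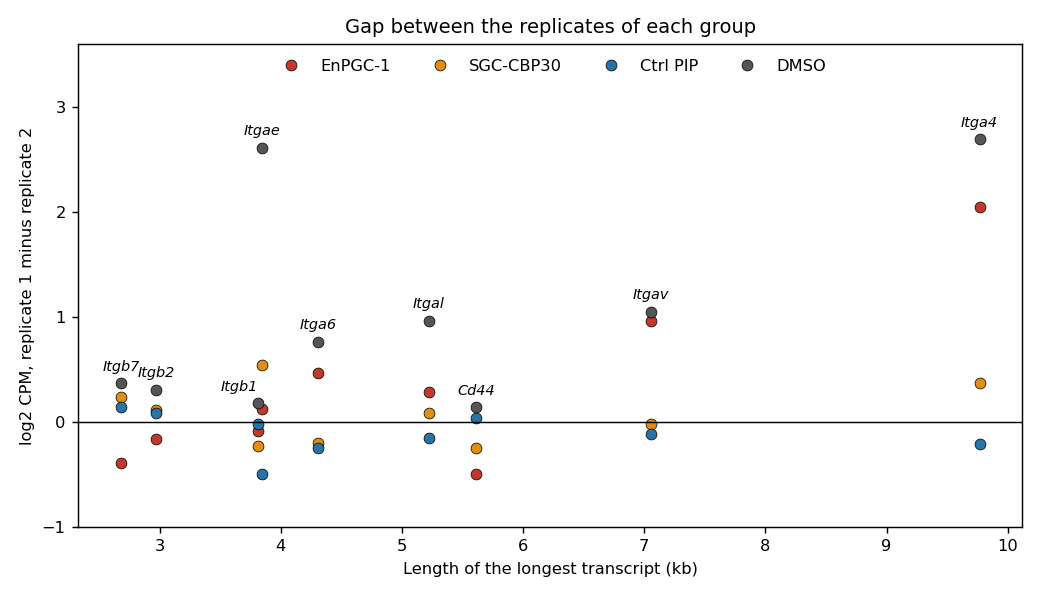
Difference between replicate 1 and replicate 2 of each group (vertical axis, log2 CPM) against the length of each gene's longest transcript (horizontal axis, kb); each point is 1 gene in 1 group. Itga4 has gaps of 2.69 in DMSO and 2.04 in EnPGC-1, Itgae has 2.61 in DMSO but 0.12 in EnPGC-1, and Itgb1 stays within 0.23 of 0 in all 4 groups.

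The Itgb1 and Itgb7 differences were as large when trends with length and GC content were removed from each library. With these offsets the log2 fold change for EnPGC-1 over DMSO was -0.82 for Itgb1 (edgeR unadjusted p = 0.000695, adjusted p = 0.947) and 0.56 for Itgb7 (edgeR unadjusted p = 0.0317, adjusted p = 0.947). Platelet and erythroid markers also moved with the libraries. The 6 markers summed to 39.3 and 0.984 CPM in EnPGC-1 libraries, 8.01 and 1.12 CPM in SGC-CBP30 libraries, 1.28 and 2.51 CPM in Ctrl PIP libraries and 20.9 and 0.494 CPM in DMSO libraries. Of these the platelet gene Pf4 had most, up to 24.0 CPM. Platelets carry Itga6, and the part of these markers in the alpha chain levels was not tested.

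Cd44, the hyaluronan receptor, was lowest with EnPGC-1. It had 70.1 and 98.8 CPM in EnPGC-1 libraries and 103 and 122 CPM in SGC-CBP30 libraries, against 108 and 105 CPM in Ctrl PIP libraries and 110.1 and 99.999 CPM in DMSO libraries. Both EnPGC-1 libraries lay below the 6 others, but replicate 2, at 98.8 CPM, only just below DMSO replicate 2. With the length and GC trends removed, this order was lost for Cd44. EnPGC-1 replicate 2 was then at 109.8 CPM, above DMSO replicate 1 at 96.9 CPM and SGC-CBP30 replicate 1 at 94.6 CPM. Without that removal, the values were as follows. The log2 fold change was -0.32 for EnPGC-1 over DMSO (interval -0.85 to 0.22, edgeR adjusted p = 0.998), -0.33 over Ctrl PIP (interval -0.86 to 0.20) and -0.41 over SGC-CBP30 (interval -0.94 to 0.12). Without EnPGC-1 replicate 1 the value over DMSO was -0.08, so the difference rested on that library. SGC-CBP30 over DMSO gave 0.10 (interval -0.43 to 0.63) and Ctrl PIP over DMSO 0.02 (interval -0.51 to 0.55).

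Genes that work with these receptors were taken from 6 lists, and in all 6 comparisons 0 genes of any list passed the adjusted edgeR threshold. The genes named below have the smallest p of their list over DMSO, a choice that favours separated libraries. Of the 16750 genes tested, 3.73% had all 4 libraries of EnPGC-1 and SGC-CBP30 below the other 4, and 2.98% above. Among 14 tested other integrin subunits, the median log2 fold change was 0.09 for EnPGC-1 over DMSO and -0.01 for SGC-CBP30 over DMSO. At an unadjusted p under 0.05, 0 were higher and 1 lower in EnPGC-1 over DMSO, and 1 was higher and 2 lower in SGC-CBP30 over DMSO. The chain with the smallest p in both was Itgax (CD11c), an Itgb2 partner of dendritic cells and some activated T cells. It had 3.08 and 1.08 CPM in EnPGC-1 libraries and 0.699 and 0.933 CPM in SGC-CBP30 libraries, against 4.001 and 4.28 CPM in Ctrl PIP libraries and 7.11 and 3.97 CPM in DMSO libraries. All 4 libraries with EnPGC-1 or SGC-CBP30 were below the other 4, with log2 fold changes of -1.42 for EnPGC-1 over DMSO (SE 0.57, edgeR adjusted p = 0.998) and -2.76 for SGC-CBP30 over DMSO (SE 0.60, edgeR adjusted p = 0.943). Itga3, a laminin receptor chain, had 3.98 and 5.21 CPM in SGC-CBP30 libraries against 2.31 and 1.94 CPM in DMSO libraries (log2 fold change 1.11, SE 0.33, edgeR adjusted p = 0.943). Ctrl PIP libraries lay between DMSO and SGC-CBP30 in Itga3, at 2.98 and 3.85 CPM. Both are low messages beside the 9 members. Itga10, a collagen receptor chain, averaged 8.002 ± 4.17 CPM in EnPGC-1, against 3.83 ± 2.52 CPM in DMSO (SD, n = 2 each).

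Of the 18 tested genes of the route that opens integrins from inside, 0 had an unadjusted p under 0.05 over DMSO with either compound. The median log2 fold change was 0.13 for EnPGC-1 over DMSO and -0.08 for SGC-CBP30 over DMSO. Fermt3 (kindlin-3), which binds beta chain tails, had 301 and 335 CPM in EnPGC-1 libraries and 311 and 280.2 CPM in SGC-CBP30 libraries, against 371 and 353 CPM in Ctrl PIP libraries and 376 and 369 CPM in DMSO libraries. All 4 libraries with EnPGC-1 or SGC-CBP30 were the lower ones, by a log2 fold change of -0.23 for EnPGC-1 over DMSO (SE 0.19) and -0.33 for SGC-CBP30 over DMSO (SE 0.19). Sipa1, which turns RAP1 off, averaged 209 ± 11.2 CPM in EnPGC-1 against 249 ± 12.6 CPM in DMSO (SD, n = 2 each). Itgb1bp1 (ICAP-1), which binds the Itgb1 tail, averaged 24.3 ± 0.841 CPM in SGC-CBP30 against 33.1 ± 4.89 CPM in DMSO (SD, n = 2 each). Tln2, a talin, had a mean of 5.32 ± 6.05 CPM in EnPGC-1, against 2.06 ± 2.36 CPM in DMSO, with SDs above the means.

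Of the 17 tested genes of outside-in signalling and the cytoskeletal link, 0 had an unadjusted p under 0.05 over DMSO with either compound, and the median log2 fold change was 0.00 for EnPGC-1 over DMSO and 0.04 for SGC-CBP30 over DMSO. Actn4, an actin cross-linker, averaged 249.5 ± 3.22 CPM in EnPGC-1 against 299.7 ± 23.7 CPM in DMSO (SD, n = 2 each). Parvg, a parvin of blood cells, averaged 117 ± 4.93 CPM in EnPGC-1 against 136 ± 6.73 CPM in DMSO. Vcl (vinculin) averaged 17.8 ± 1.70 CPM in SGC-CBP30 against 12.1 ± 4.73 CPM in DMSO. Ilk, an adaptor at beta chain tails, averaged 120.1 ± 0.905 CPM in SGC-CBP30 against 135 ± 2.63 CPM in DMSO. None of these differences passed a threshold.

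Of the 11 tested ligand genes, 0 had an unadjusted p under 0.05 over DMSO with either compound, and the median log2 fold change was 0.16 for EnPGC-1 over DMSO and -0.54 for SGC-CBP30 over DMSO. Most are low in these cells. Tgfb1, whose latent form is bound by Itgav integrins, was an abundant one. It had 126 and 130 CPM in EnPGC-1 libraries and 126 and 117 CPM in SGC-CBP30 libraries, against 155 and 155 CPM in Ctrl PIP libraries and 156 and 158 CPM in DMSO libraries. All 4 libraries with EnPGC-1 or SGC-CBP30 were below the other 4, and the log2 fold change was -0.30 for EnPGC-1 over DMSO (SE 0.16, edgeR adjusted p = 0.998) and -0.37 for SGC-CBP30 over DMSO (SE 0.16, edgeR adjusted p = 0.943). Vcam1, the ligand of VLA-4, had 83 counts in EnPGC-1 replicate 1 and at most 12 in any other library. Spp1 (osteopontin) averaged 0.241 ± 0.105 CPM in EnPGC-1 and 0.194 ± 0.0637 CPM in SGC-CBP30, against 0.744 ± 0.00962 CPM in DMSO (SD, n = 2 each). Ctrl PIP had the lowest mean of Spp1, 0.119 ± 0.0864 CPM, and no library had more than 38 counts of it.

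In the list of CD44 partners and hyaluronan genes, with 11 tested, the median log2 fold change was -0.03 for EnPGC-1 over DMSO and 0.24 for SGC-CBP30 over DMSO. There was 1 gene higher at an unadjusted p under 0.05 in both, Has3, a hyaluronan synthase. It had 21 and 13 counts in EnPGC-1 libraries and 5 and 17 counts in SGC-CBP30 libraries, against 0 and 0 counts in Ctrl PIP libraries and 0 and 0 counts in DMSO libraries. With a floor of 3 counts per library put in for DMSO, the mean level of Has3 was 5.75-fold that floor in EnPGC-1 and 3.13-fold in SGC-CBP30. The edgeR adjusted p over DMSO was 0.998 and 0.943. These folds are of group means, and SGC-CBP30 replicate 1, with 5 counts, lay close to the floor. These are very few reads in libraries of this depth. Hyal2, a hyaluronidase, averaged 5.38 ± 0.710 CPM in EnPGC-1 against 6.91 ± 3.55 CPM in DMSO, and Srgn, a proteoglycan that CD44 binds, 223 ± 14.0 CPM in EnPGC-1 against 197 ± 35.3 CPM in DMSO (SD, n = 2 each). Hmmr, another hyaluronan receptor, averaged 118 ± 33.2 CPM in SGC-CBP30 against 77.1 ± 10.8 CPM in DMSO, with 102 ± 5.18 CPM in Ctrl PIP.

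Among 13 other adhesion receptors, 0 in EnPGC-1 and 1 in SGC-CBP30 had an unadjusted p under 0.05 over DMSO, and the median log2 fold change was 0.02 for EnPGC-1 over DMSO and -0.25 for SGC-CBP30 over DMSO. Cd81, a tetraspanin, was that gene, with 12.2 and 11.3 CPM in SGC-CBP30 libraries against 5.11 and 7.47 CPM in DMSO libraries (log2 fold change 0.91, SE 0.28, edgeR adjusted p = 0.943). Ctrl PIP libraries lay between them, at 8.56 and 8.46 CPM of Cd81. Cd48, a CD2 ligand, had 98.1 and 97.7 CPM in SGC-CBP30 libraries against 123 and 140.2 CPM in DMSO libraries. Cd96 averaged 232 ± 12.3 CPM in EnPGC-1 against 185 ± 76.3 CPM in DMSO, and Alcam, a CD6 ligand, 15.1 ± 1.31 CPM in EnPGC-1 against 19.0 ± 3.74 CPM in DMSO (SD, n = 2 each).

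The genes most like each member over the 8 libraries, by Pearson's r of log2 CPM among 10211 other genes with a mean of at least 5 CPM, are given as a description. For Itgb1 they were Abcb1b (r = 0.96) and Aebp2 (r = 0.95), and for Itgb7 Psap and Ing4 (both r = 0.98). For Cd44 they were Chst2 (r = 0.98) and Ap1s3 (r = 0.96), and for Itgb2 Lrp10 and Hdac7 (both r = 0.93). For the alpha chains they were Cep250 and Pxn for Itgal (both r = 0.99), Slc4a7 (r = 0.995) and Zbtb44 (r = 0.99) for Itga4, Cyth4 and Bicdl1 for Itgae (both r = 0.97), Traf3 and Dipk2a for Itgav (both r = 0.99), and Lrrc8b (r = 0.98) and Foxn2 (r = 0.97) for Itga6. Among the members themselves, the alpha chains varied together (r = 0.61 to 0.92 over their 10 pairs), Itga4 and Itgav most. By ranks the link was looser in some pairs. Spearman's rho ran from 0.40 (Itgal and Itgae) to 0.88 (Itga4 and Itgav, and Itgav and Itga6). Itgb1 and Itgb7 varied in opposite directions (r = -0.77), and Itgb1 varied little with Itgal (r = 0.04). All of these correlations are over the same 8 libraries and share their depth and the length trend.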

How the data were processed

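RNA-seq was measured in 8 libraries of activated mouse CD8+ T cells, made with a strand-marking poly(A) kit. The authors deposited whole-number counts per gene for 45777 Entrez gene IDs and regularized log2 values (rlog) for 16442 genes, whose header names stand 1 column to the left of their values, as correlation with the counts showed. Per the submitters' processing notes, HISAT2, StringTie and DESeq2 were used with the build mm10. The annotation, the counter and its strand setting were not given in the sources used here, so overlapping genes may share counts. There were 0 columns of other samples.

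Counts were tested in all 8 libraries with edgeR 4.0.16 (quasi-likelihood test, R 4.3.3), TMM scaling, filterByExpr by group and no covariates, which left 16750 genes and 4 residual degrees of freedom. Tests were two-sided, with Benjamini-Hochberg adjustment over all genes of a comparison at 0.05. CPM used TMM library sizes, and log2 CPM a prior count of 2. Intervals of 95% come from the model's standard errors.

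Symbols, positions and promoters came from RefSeq tables on GRCm38.p6, which matched 99.8% of IDs. Lengths were those of the longest GENCODE transcript, known for 92.1% of genes tested. Length and GC trends came from mgcv 1.9.3. The members, lists and tests were chosen with earlier results of these data known. Named genes were the 9 members and, of each list, up to 3 tested genes with the smallest p for EnPGC-1 over DMSO and up to 2 for SGC-CBP30 over DMSO. Of these, 1 gene is not reported here. Alternatives were DESeq2 1.42.0, its size factors, no low-count filter, limma 3.58.1 on the log2 values, the replicate number as a block, 4-library fits, the offsets and fits without libraries. The fits were also run on simulated counts with planted changes. Those counts had no length trend and no deviations shared between libraries, so that run does not cover these features.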

Additional observations from a re-analysis of the deposited data

How the results depend on the processing

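None of the 54 log2 fold changes of the 9 genes passed the adjusted threshold in the fit to all 8 libraries. Over 927 values under alternative settings, 89 had the other sign and 17 passed the threshold. In 19 of the 54 the sign was the same throughout, among them Itgb1 and Itgb7 in each comparison of EnPGC-1 or SGC-CBP30 with another group, and Cd44 in each comparison of EnPGC-1. Leaving out 1 library at a time called 0 members and 0 genes in every comparison (lowest 0, highest 0). The 95% interval of the median gene reached about 1.00 to either side on the log2 scale for EnPGC-1 over DMSO.

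DESeq2 called 18 genes in EnPGC-1 over DMSO, 33 in EnPGC-1 over Ctrl PIP, 9 in EnPGC-1 over SGC-CBP30, 59 in SGC-CBP30 over DMSO, 30 in SGC-CBP30 over Ctrl PIP and 1 in Ctrl PIP over DMSO, against 0 with edgeR. With only the 4 libraries of SGC-CBP30 and Ctrl PIP, whose replicates are close, 2 of the 9 members (Itga4 and Itgb1) and 2470 of 15660 genes tested were called. Fits that drop the same-numbered library from DMSO and EnPGC-1 leave 1 library in each, which is assumed to vary like the other groups. Without both first libraries, the calls were 2 members (Itgae at 2.10 and Itgb7 at 0.89 on the log2 scale) and 1095 genes in EnPGC-1 over DMSO, 41 genes in EnPGC-1 over Ctrl PIP, 1 gene in EnPGC-1 over SGC-CBP30, 6 members and 6314 genes in SGC-CBP30 over DMSO and 1 gene in Ctrl PIP over DMSO. There SGC-CBP30 over DMSO turned its sign for Itga4 (1.61), Itgae (1.498) and Itgav (0.57). Without both second libraries, the calls were 4 members (Itga4, Itgav, Itgb1 and Cd44) and 5183 genes in EnPGC-1 over Ctrl PIP, 1 member (Itga4) and 883 genes in EnPGC-1 over SGC-CBP30, 15 genes in SGC-CBP30 over DMSO, and 2 members (Itga4 and Itgav) and 2365 genes in Ctrl PIP over DMSO. Itgb7 in EnPGC-1 over DMSO, at 0.89 without both first libraries, was at 0.13 without both second libraries. By construction these fits have fewer libraries with a wide gap. The cause of the single changes was not tested.

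No label says that the replicate numbers mark a shared animal, culture or batch, and the data give no single answer for the 4 groups. The deviations of same-numbered libraries correlated across 9399 genes at r = 0.82 between EnPGC-1 and DMSO, 0.43 between EnPGC-1 and SGC-CBP30 and 0.41 between SGC-CBP30 and DMSO, but at -0.59, -0.16 and -0.56 between Ctrl PIP and EnPGC-1, SGC-CBP30 and DMSO. The log2 ratio of same-numbered EnPGC-1 and DMSO libraries was 0.16 and 0.80 for Itga4. With the replicate number as a block, 0 members and 0 genes were called in all 6 comparisons. With the numbers of Ctrl PIP exchanged in the block, a setting chosen after seeing the data, the counts were also 0 and 0 in its 3 comparisons.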
